A study of Rattus norvegicus with 10 samples.

Results

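The 8 genes described here, Cr2, Ms4a1, Cd79b, Cd22, Pax5, Blk, Fcrla and Fcer2, are carried by B cells and by the follicles in which B cells gather, and they are 8 of the 32883 features of the deposited table. They were chosen by name for their level in 1 library, MPS 14, against the other 9. Their values in MPS 14 are therefore given as a description. So are the tests that hold MPS 14, since they use the same values. All 8 names were found, each on 1 feature. The RNA came from muscle of Sprague Dawley rats in 3 groups: 4 libraries labelled NC (4, 5, 6 and 7), 3 labelled MPS (10, 11 and 14) and 3 labelled TZG (26, 27 and 43). The series concerns myofascial pain syndrome, a disorder of painful taut spots in skeletal muscle, and a herbal preparation, Tianhe Zhuifeng liquid extract. The titles call the TZG samples a drug. Neither NC nor TZG is spelled out in the labels, which give no muscle, dose, time, age or sex. They do not say how the pain model was made or whether TZG animals carried it, and do not state that the samples are separate animals. Each p-value therefore measures only the spread between these samples, which may be technical.

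B cells recognise antigen through a receptor made of membrane immunoglobulin and a signalling pair of which Cd79b is a part. Receptors for complement and for antibody raise or lower the response, kinases of the Src family start it, and Pax5 holds the B cell identity in place. In lymph nodes and spleen, resting B cells lie in follicles around follicular dendritic cells, stromal cells that hold antigen coated with complement. Skeletal muscle at rest holds few B cells and no follicles.

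Library totals ran from 12616160 to 18179144 counts, with 13642002 in MPS 14, where 1 count stood for 0.0733 counts-per-million (CPM) of the total. MPS 14 stood apart from the rest beyond these genes. Of 10 skeletal muscle markers 0 were above and 8 were below all other 9 libraries there, with a median ratio to the pooled 9 of 0.0512, and transcripts of the mitochondrial genome took 9.71% of its counts against 18.7% to 38.6% elsewhere. Of 20593 features with a count, 9856 (47.9%) were higher in MPS 14 than in all other 9 libraries and 1599 (7.76%) were over 10 times the highest of them. Among the 13129 features with a mean of at least 1 CPM, 56.8% were higher there. All 8 B cell and follicle genes were higher and over 10-fold higher, which is what they were chosen for. In bulk RNA, fewer cells of a type and less RNA per cell cannot be told apart.

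The stretch of 250 bases before the gene start is shown for Cr2, Cd22 and Fcrla, the 3 members matched in the RefSeq promoter table (GRCr8 assembly), because these genes were high together in MPS 14 and B cell genes are known to be read by factors of the Ets, helix-loop-helix and octamer families. All 3 lie on the minus strand and are written 5′ to 3′. Capitals mark the letters that matched 1 of the 7 motifs searched on both strands.
Cr2, chr13:109244507-109244756: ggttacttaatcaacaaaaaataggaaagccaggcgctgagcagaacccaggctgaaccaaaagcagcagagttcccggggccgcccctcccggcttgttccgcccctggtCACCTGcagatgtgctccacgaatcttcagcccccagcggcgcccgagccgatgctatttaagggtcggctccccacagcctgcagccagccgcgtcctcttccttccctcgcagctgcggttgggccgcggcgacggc
Cd22, chr1:95259731-95259980: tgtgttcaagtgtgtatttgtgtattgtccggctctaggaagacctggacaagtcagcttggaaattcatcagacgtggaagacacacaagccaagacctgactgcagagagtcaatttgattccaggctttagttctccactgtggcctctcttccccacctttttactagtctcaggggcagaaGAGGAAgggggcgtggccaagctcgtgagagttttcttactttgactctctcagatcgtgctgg
Fcrla, chr13:85702827-85703076: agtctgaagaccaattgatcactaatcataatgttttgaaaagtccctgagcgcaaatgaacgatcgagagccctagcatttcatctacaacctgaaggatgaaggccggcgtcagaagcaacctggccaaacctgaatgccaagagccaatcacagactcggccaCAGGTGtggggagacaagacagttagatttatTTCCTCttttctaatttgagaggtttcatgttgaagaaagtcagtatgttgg
Counted from the gene start, with -1 the base before it, the E-box CAGGTG stood at -84 to -79 in Fcrla, and its reverse complement at -139 to -134 in Cr2. The PU box GAGGAA, the letters read by the Ets factor PU.1, stood at -64 to -59 in Cd22 and in reverse complement at -52 to -47 in Fcrla. These are common letters, since CAGGTG or its complement occurred in 15.9% and GAGGAA in 23.3% of 33469 promoter windows of 300 bases. The octamer ATTTGCAT (1.56% of windows), the EBF palindrome (0.738%), the NF-kB site (1.3%), the PAX5 core GCGTGAC (1.74%) and the TATA box TATAAA (12.9%) did not occur in these 3 windows. The motifs searched did not overlap one another in the 3 windows, and a match is a run of letters, not a site shown to be used. Ms4a1, Cd79b, Pax5, Blk and Fcer2 were not matched.

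Cd79b, the signalling chain of the B cell receptor (ENSRNOG00000011917, chromosome 10, 94497448 to 94500591), had 4384 counts in MPS 14. It had 10, 4, 0 and 11 counts in NC 4, 5, 6 and 7, 2 and 0 in MPS 10 and 11, and 1, 1 and 0 in TZG 26, 27 and 43. MPS 14 thus held 99.3% of its counts, at 321.4 CPM against 0.222 CPM in the other 9 pooled, a ratio of 1451 (95% counting interval 1009 to 2169). The positions here and for the next genes are those of the deposited table, whose genome build is not given in the sources used here.

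The other surface proteins followed the same order. Ms4a1 encodes CD20, a membrane protein of B cells (ENSRNOG00000020945, chromosome 1, 227429596 to 227441442), and had 3583 counts in MPS 14 against 6, 4, 1 and 5 in the NC libraries, 2 and 0 in MPS 10 and 11, and 0 in each TZG library. Its ratio of MPS 14 to the pooled 9 was 1910 (1207 to 3227). Cr2, the receptor for complement fragments on B cells and follicular dendritic cells (ENSRNOG00000034164, chromosome 13, 113890272 to 113927877), had 11553 counts in MPS 14 against 5, 2, 2 and 5 in NC, 0 and 5 in MPS 10 and 11, and 0, 0 and 2 in TZG. This was the highest ratio of the 8, at 5279 (3452 to 8532), and no other library passed 0.372 CPM. Fcer2 encodes CD23, the low-affinity receptor for IgE (ENSRNOG00000001005, chromosome 12, 2233778 to 2245324), with 1079 counts in MPS 14 against 0, 1, 3 and 2 in NC, 0 and 0 in MPS 10 and 11, and 0, 0 and 3 in TZG, a ratio of 1150 (604 to 2523).

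Cd22, an inhibitory receptor that binds sialic acid and dampens signals of the B cell receptor (ENSRNOG00000024000, chromosome 1, 89314558 to 89329418), was the only member with a count in every library. It had 1795 counts in MPS 14, and 37, 4, 24 and 19 in NC, 3 and 7 in MPS 10 and 11, and 18, 8 and 28 in TZG. With 92.4% of its counts in MPS 14 and a ratio of 116 (98.4 to 139), it was the least concentrated of the 8. Of the 252 counts that the 8 genes had together in the other 9 libraries, 148 (58.7%) were Cd22.

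Blk, a Src-family kinase of the B cell receptor (ENSRNOG00000010798, chromosome 15, 46555188 to 46593653), had 388 counts in MPS 14 against 3, 0, 0 and 11 in NC, 0 and 3 in MPS 10 and 11, and 0, 0 and 5 in TZG, a ratio of 169 (110 to 273). Pax5, the transcription factor of B lineage commitment (ENSRNOG00000024729, chromosome 5, 60007587 to 60191941), had 93 counts in MPS 14 and 1 elsewhere, in MPS 11. With that single count, the ratio of 892 had an interval from 156 to 35623. Fcrla, an intracellular relative of Fc receptors in B cells (ENSRNOG00000003136, chromosome 13, 89296573 to 89306260), had 1195 counts in MPS 14 and 4 elsewhere, all in TZG 26, a ratio of 2867 (1117 to 10539). Blk and Cd22 were thus the members whose distance from the next library was smallest, at 34.8 and 48.3 times the highest other library in CPM.

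The ratios of the 8 genes depend on how the library total is scaled, while the order of MPS 14 above the rest does not for these 8. With totals scaled by TMM factors, a normalisation to the bulk of genes, the factor of MPS 14 was 1.77 against 0.695 to 1.22 in the others. The ratio of Cr2 was then 2805, that of Fcrla 1523, that of Ms4a1 1015, that of Cd79b 771, that of Fcer2 611, that of Pax5 474, that of Blk 89.9 and that of Cd22 61.8. All 8 genes stood above all other 9 libraries under that scaling and with mitochondrial transcripts removed from the totals. The counting intervals cover counting error only.

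**Figure D1:**
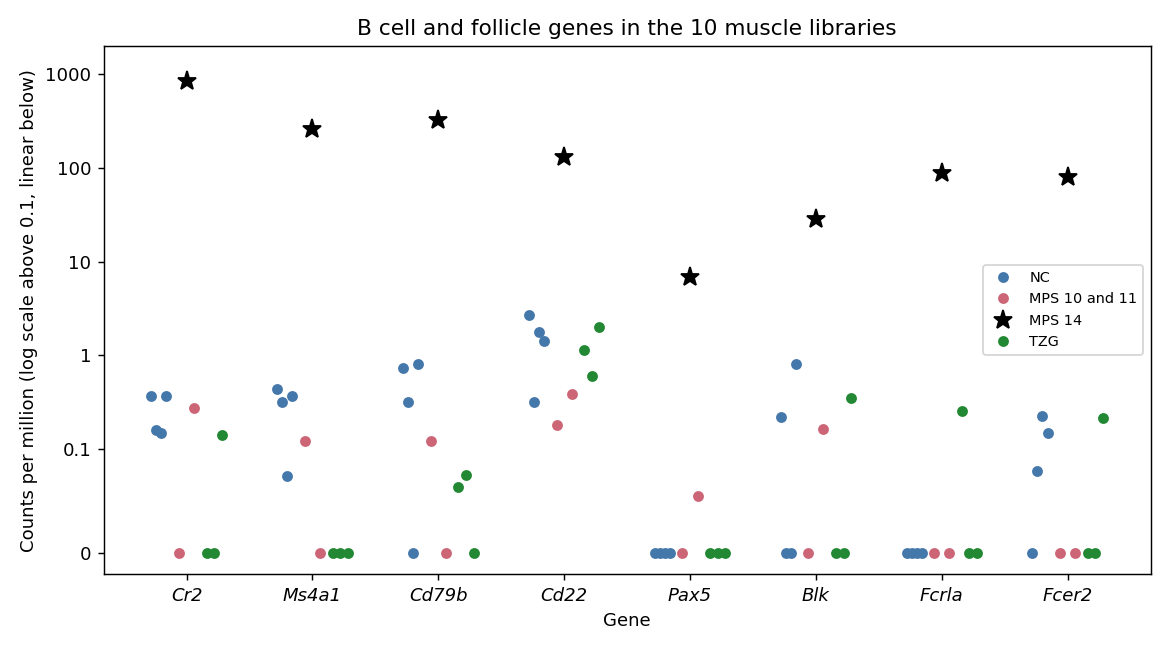
Level of the 8 genes in each of the 10 libraries, in CPM (vertical axis, logarithmic above 0.1 and linear below), with 1 point per library and MPS 14 as a star. MPS 14 stands between 6.82 CPM (Pax5) and 846.9 CPM (Cr2), and no other library exceeds 2.72 CPM (Cd22 in NC 4).

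Compared per gene length, in the deposited FPKM (a level per gene length and library total), the order within MPS 14 was different from that of the counts. Cd79b was highest at 266 FPKM, followed by Ms4a1 at 213 and Cr2 at 117. Fcrla at 42.9 (95% counting interval 40.5 to 45.4) and Fcer2 at 39.6 (37.3 to 42.1) overlapped within counting error, and the other neighbours in the order did not. Cd22 followed at 30.3 FPKM, Blk at 10.4 and Pax5 at 5.80. Among 17108 features above 0 in that library, Cd79b lay at the 98.2 percentile of FPKM and Pax5 at the 51.1 percentile, so the receptor chain was among the high transcripts and the transcription factor near the middle.

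Wider lists of B cell, germinal centre, plasma cell and follicle genes were read in the same library. Their counts, and those of the cell type markers below, use CPM of the whole library total. They were not repeated with TMM scaling, where genes of low ratio, such as Ebf1 at 1.88, may change order. Of 17 matched genes of the B cell receptor and its signalling, 16 were higher in MPS 14 than in all other 9 libraries and 12 were over 10 times the highest of them, with a median ratio of 34.9 against 1.60 over all features with a count. The tetraspanin Cd81 stood at 240 FPKM, the kinase Lyn at 84.1, the kinase subunit Pik3cd at 79.7 and the phosphatase Ptpn6 at 70.1. Cd81 is widely expressed and had a ratio of 1.65. All 13 B lineage transcription factors were above the other 9 libraries, 7 of them over 10-fold, at a median ratio of 36.5. Irf8 stood at 131 FPKM, the octamer co-activator Pou2af1 at 72.3, the Ets factor Spib at 40.8 and Ikzf1 at 32.5.

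Genes of the B cell surface and of B cell survival were above the other 9 libraries in 16 of 18 cases, 11 of them over 10-fold, at a median ratio of 61.6. The tetraspanin Cd37 stood at 328 FPKM, the chemokine receptor Ccr7 at 200 and the IgM receptor Fcmr at 118. Ccr7 is carried by naive T cells too. The exceptions were Cd24 and Cd1d1, at 0.384 and 0.444 of the pooled other libraries.

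Germinal centre genes, which mark B cells that divide and mutate their antibody genes, were above the rest in 12 of 14 cases, 7 of them over 10-fold, at a median ratio of 14.3 with genes at 0 elsewhere set at their lower bound. The germinal centre repressor Bcl6 was an exception, at 16.6 FPKM and a ratio of 1.54, and the highest other library stood above MPS 14 (59.4 against 56.3 CPM). Rgs13, a regulator of G protein signals, had 102 counts in MPS 14 and 0 elsewhere, which is at least 326-fold higher if the 9 libraries together are set at a floor of 3 counts. The highest levels in the list were those of Cxcr4 at 108 FPKM, Il21r at 84.9 and Basp1 at 17.2. Il21, a cytokine of follicular helper T cells, had 0 counts in MPS 14.

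Plasma cell genes were higher in 9 of 9 cases, 5 of them over 10-fold, at a median ratio of 27.3. Jchain, which joins IgM and IgA chains, stood at 677 FPKM, the secretory factor Xbp1 at 71.9, the chaperone Mzb1 at 60.7 and the kinase Pim2 at 17.9. Genes of follicular dendritic cells and follicle stroma were higher in 9 of 13 cases, 5 of them over 10-fold, at a median ratio of 19.8. Cxcl13, the chemokine that draws B cells into follicles, stood at 696 FPKM, clusterin (Clu) at 505, the opsonin Mfge8 at 173 and the adhesion molecule Vcam1 at 59.6. Clu and Mfge8 are made in many tissues and had ratios of 3.79 and 2.53. Fdcsp, a secreted peptide of follicular dendritic cells, had 0 counts in every library, and Madcam1 had 2 counts in MPS 14.

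**Figure D2:**
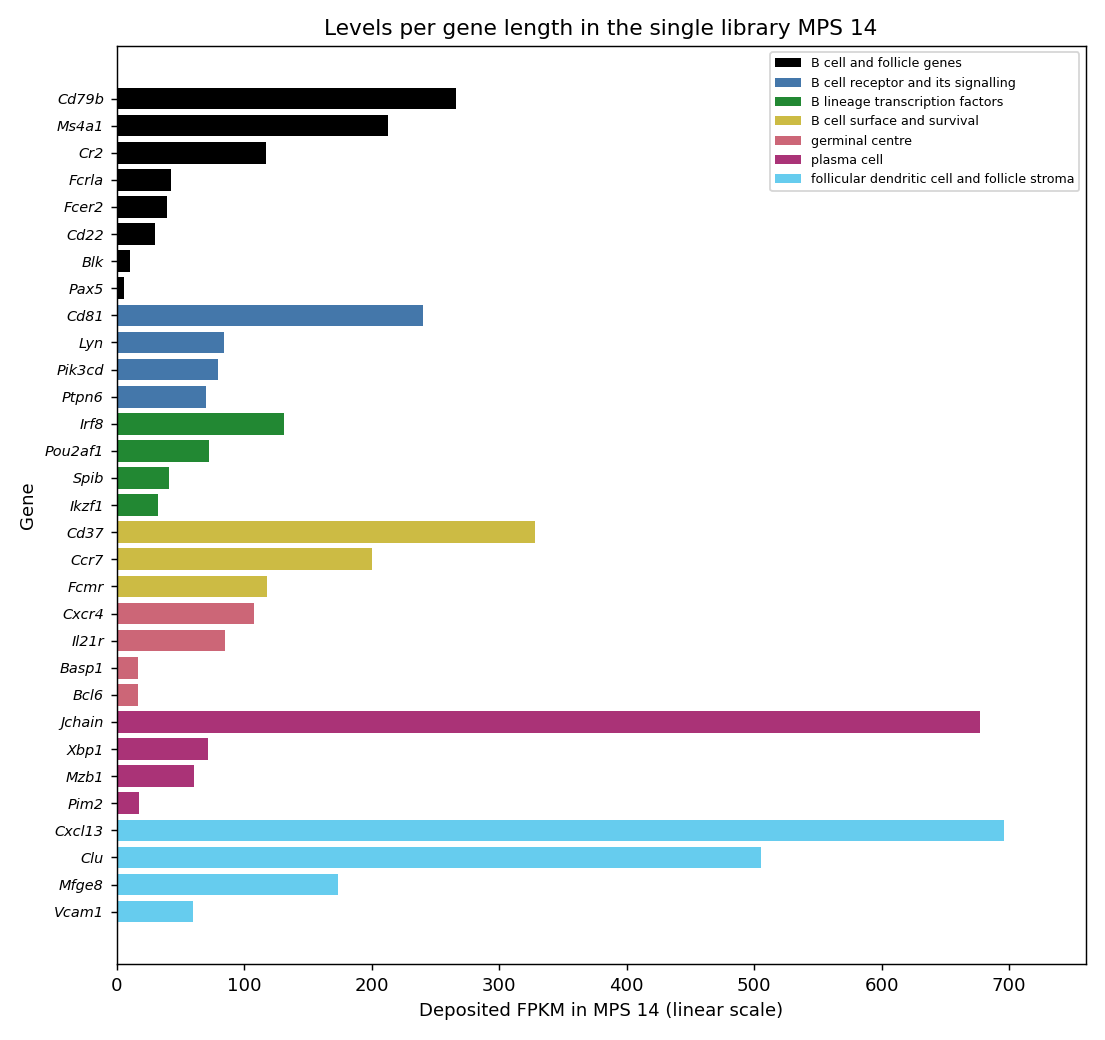
Deposited FPKM in MPS 14, on a linear axis that starts at 0, for the 8 genes and for 3 or 4 of the highest genes of each of 6 wider lists (bars, 1 library, no error). Cxcl13 and Jchain are highest at 696 and 677 FPKM, and Cd79b leads the 8 genes at 266 FPKM.

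T cell markers and most macrophage markers were high with the 8 genes, and endothelial and fat cell markers were not. All 14 matched T cell markers were above the other 9 libraries, 13 of them over 10-fold, at a median ratio of 241, and their summed level was 1959 CPM in MPS 14 against 5.78 to 29.2 CPM elsewhere. Of 11 macrophage markers 10 were higher, 2 of them over 10-fold, at a median ratio of 6.84. The exception was Cd163, at a ratio of 0.613. Of 5 endothelial and 5 fat cell markers, 0 were above all other 9 libraries, at median ratios of 0.369 and 0.424. The share of MPS 14 that came from each cell type was not tested.

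**Figure D3:**
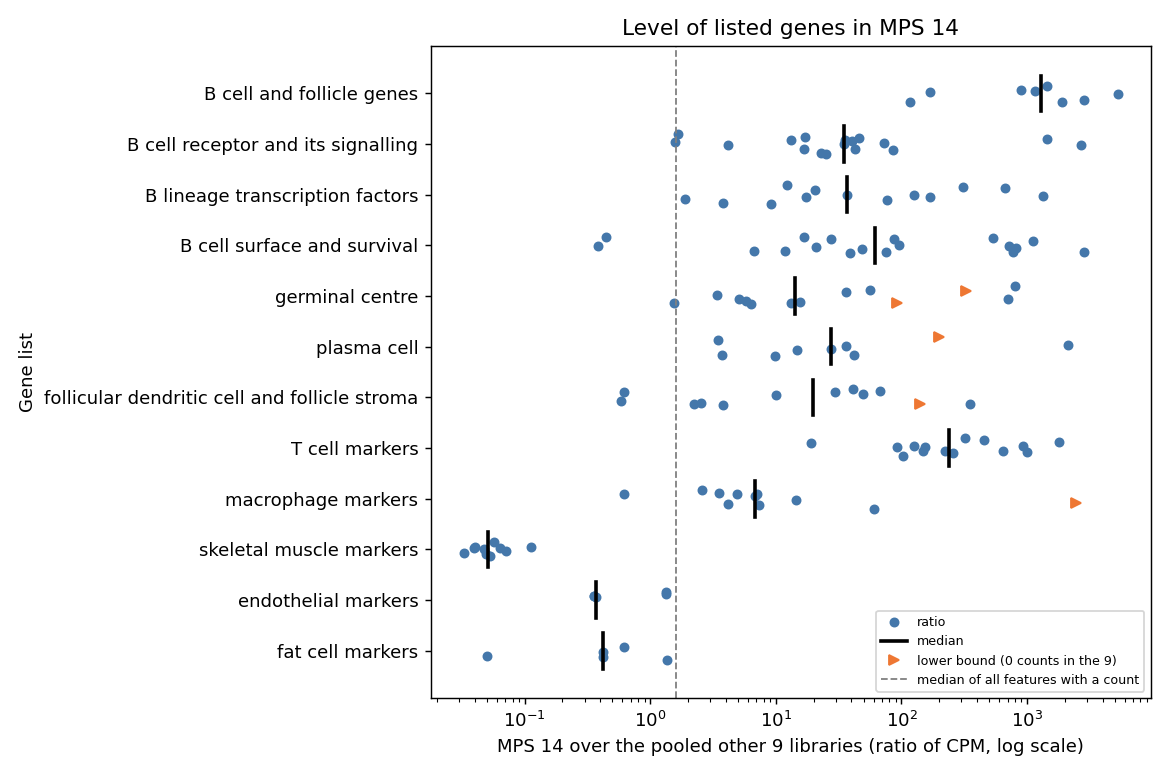
Ratio of CPM in MPS 14 to the pooled other 9 libraries (logarithmic axis) for each gene of 12 lists, with the median as a bar and triangles for genes with 0 counts in the 9 libraries, drawn at their lower bound (Il21, at 0 in MPS 14, and Fdcsp, at 0 in all libraries, are not drawn). The 8 genes have a median of 1301, T cell markers 241 and skeletal muscle markers 0.0512, beside 1.60 over all features (dashed).

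Profiles over the 10 libraries were ranked by Euclidean distance in log2(CPM + 0.5) to the mean profile of the 8 members. Only genes with a proper gene name were ranked, which left out clone, locus and similar placeholder names. The nearest 10 of them were Slc7a11 (0.80), Stap1 (0.81), Cd69 (1.0), Il7r (1.04), Lax1 (1.10), Cd27 (1.11), Spib (1.11), Calhm6 (1.17), Tnfsf8 (1.17) and Trat1 (1.19). The members themselves lay between 1.10 (Fcer2) and 4.09 (Pax5) from their mean. MPS 14 made up 0.233% (Spib) to 18.6% (Trat1) of the squared distance of these 10 genes, so their order rests mostly on small differences among the other 9 libraries, where none of them passed 0.892 CPM. Slc7a11, the cystine transporter, had 1227 counts in MPS 14 and 12 elsewhere, and Il7r, the receptor of a lymphocyte survival cytokine, had 1116 and 21.

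The comparison of MPS with NC addresses the change of muscle under the pain syndrome label, and with MPS 14 kept it rested on that library for all 8 genes. The fits with MPS 14 use the values for which the genes were chosen, so they are given as a description. Filtering on low counts left Cd79b and Cd22, 2 of the 8. In edgeR's quasi-likelihood test with Benjamini-Hochberg adjustment, Cd79b stood at 61.6 ± 107 normalised CPM in MPS (SD, n = 3) against 0.448 ± 0.357 in NC (n = 4), a log2 fold change of 7.09 ± 2.18 (SE) with an adjusted p of 0.398. Cd22 had 4.14 ± 1.58 with an edgeR adjusted p of 0.428. Of 13535 features, 0 (0%) passed in this comparison, with 1453 at an unadjusted p under 0.05 and 205 past the threshold in DESeq2, which gave neither gene an adjusted p. For TZG against MPS, Cd79b stood at -9.89 and Cd22 at -3.97 (edgeR adjusted p of 0.780 for both), and again 0 features passed (0%), with 700 at an unadjusted p under 0.05 and 3 in DESeq2. For TZG against NC, where 0 features passed too (0%; 744 at an unadjusted p under 0.05, 52 in DESeq2), Cd79b stood at -2.80 and Cd22 at 0.17 (edgeR adjusted p of 0.925 and 0.995).

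The authors' deposited table called more of the genes in MPS over NC. There, 290 of 19327 features had a q under 0.05 (1.5%), and 5 of the 8 genes were among them in the authors' deposited table. These were Cr2 (log2 fold change 9.27, q = 0.00261), Fcrla (11.02, q = 0.00500), Ms4a1 (7.36, q = 0.00828), Cd79b (7.02, q = 0.0224) and Fcer2 (7.06, q = 0.0224), all values from the authors' deposited table. Pax5 (7.38, q = 0.0670), Cd22 (4.09, q = 0.0785) and Blk (4.40, q = 0.230) did not reach 0.05 in the authors' deposited table. For TZG over MPS the authors' deposited table held 0 of 19131 features under 0.05 (0%), and for TZG over NC 368 of 18564 (1.98%), with 0 of the 7 members that had a q. Each of these comparisons with MPS holds MPS 14, so the calls repeat the values for which the genes were chosen.

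Among the other 9 libraries the 8 genes were near the limit of detection. Their summed counts were 61, 15, 30 and 53 in NC 4, 5, 6 and 7, 7 and 16 in MPS 10 and 11, and 23, 9 and 38 in TZG 26, 27 and 43, against 24070 in MPS 14. Without Cd22 the sums were 24, 11, 6 and 34 in NC, 4 and 9 in MPS, and 5, 1 and 10 in TZG. NC 4 and NC 7 were highest in both sums. In CPM the 8 genes summed to 1.19 to 4.49 in NC, to 0.424 and 0.880 in MPS 10 and 11, and to 0.675 to 2.70 in TZG, so MPS 10 and 11 lay below every NC library and TZG overlapped with NC. Without Cd22 the summed CPM of NC (0.447 to 2.53) overlapped with both MPS (0.242 and 0.495) and TZG (0.0751 to 0.710).

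**Figure D4:**
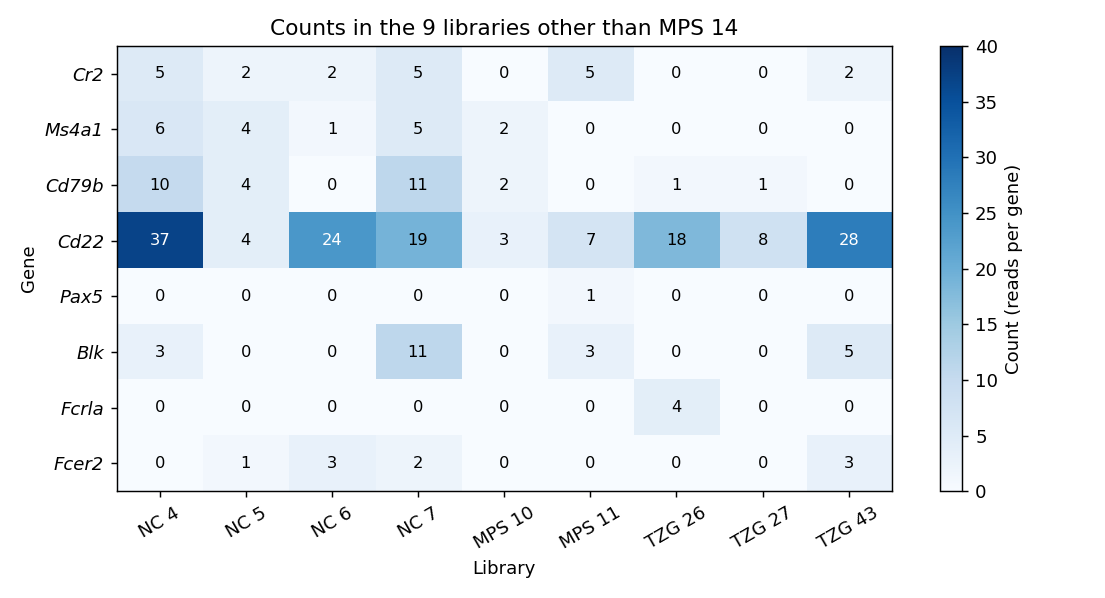
Counts of the 8 genes in the 9 libraries other than MPS 14 (colour scale and printed counts, reads per gene). Cd22 runs from 3 counts in MPS 10 to 37 in NC 4, and no other gene passes 11 counts in any of these libraries.

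Without MPS 14, 13719 features were tested and the members that passed the filter were again Cd79b and Cd22. For MPS against NC, 362 features (2.64%) passed in edgeR, 307 higher and 55 lower, and neither gene was among them. Cd22 stood at 0.283 ± 0.144 CPM in MPS 10 and 11 (SD, n = 2) and 1.56 ± 0.996 CPM in NC (n = 4), and MPS 11 at 0.385 CPM lay above NC 5 at 0.317 CPM. Its log2 fold change was -2.12 ± 0.92 (SE), with an unadjusted p of 0.0399 and an adjusted p of 0.219 in edgeR's quasi-likelihood test. Cd79b stood at -2.62 ± 1.55, with an edgeR adjusted p of 0.364. With all libraries both had stood higher in MPS, so the direction of both differences turned when MPS 14 was left out.

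For TZG against MPS without MPS 14, 1 feature passed (0.00729%), and 0 of the 8 genes did. The TZG libraries had 0.600 to 1.99 CPM of Cd22, against 0.182 and 0.385 CPM in MPS 10 and 11. The log2 fold change was 2.30 ± 0.95 (SE), with an unadjusted p of 0.0334 and an adjusted p of 0.979 in edgeR's quasi-likelihood test. Cd79b was at -0.18 ± 1.96 (edgeR adjusted p of 0.999). For TZG against NC, 11 features passed (0.0802%), again without either gene. Cd22 stood at 1.24 ± 0.699 CPM in TZG (SD, n = 3), with a log2 fold change from NC of 0.18 ± 0.69 (edgeR adjusted p of 0.921), and Cd79b at -2.79 ± 1.43 (edgeR adjusted p of 0.318).

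The levels of Cd22 in these 9 libraries stood beside those of macrophage markers. The 11 markers summed to 431, 267, 606 and 279 CPM in NC 4, 5, 6 and 7, to 122 and 101 CPM in MPS 10 and 11, and to 217, 106 and 341 CPM in TZG 26, 27 and 43, with Marco at 0 in all 9. All 10 macrophage markers tested were lower in MPS than in NC, at a median log2 fold change of -1.66 against -0.02 over all features, and 0 of the 10 passed in edgeR, with 6 at an unadjusted p under 0.05 and 6 past the threshold in DESeq2, beside 20.6% and 7.94% over all features. The 14 T cell markers summed to 10.7 to 20.1 CPM in NC, 7.64 and 5.83 CPM in MPS, and 5.78 to 29.2 CPM in TZG. Their part in the Cd22 values was not tested.

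The other 6 genes were too low for the filter. Ms4a1 had 1 to 6 counts in each NC library and 0 in all 3 TZG libraries, which allows up to 0.0695 CPM (3 counts over the group), against 0.301 ± 0.160 CPM in NC (SD, n = 4). Cr2 stood at 0.262 ± 0.125 CPM in NC against 0.0473 ± 0.0820 in TZG (n = 3). In CPM both genes were thus lower in every TZG library than in every NC library. That is 2 of 8, beside 17.9% of all 19364 features with a count in these groups. For Cr2 the counts were tied at 2 in TZG 43, NC 5 and NC 6, so its order there came from the library totals alone. Fitted with no filter, TZG against NC gave an edgeR adjusted p of 0.250 for Ms4a1 (unadjusted p of 0.0196) and 0.600 for Cr2 (unadjusted p of 0.232). MPS 10 and 11 lay below every NC library for 0 of the 8 genes, beside 24.4% of 19128 features. Cd79b, Pax5, Blk, Fcrla and Fcer2 had 0 counts in at least 1 NC library, so no library could lie below every NC library for them. That outcome was open only for Cr2, Ms4a1 and Cd22, which limits both comparisons with the share of all features. Neither group lay above every NC library for any of the 8, beside 1.32% of features for TZG and 8.36% for MPS 10 and 11.

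Fcer2 averaged 0.113 CPM in NC and 0.0710 in TZG and had 0 counts in MPS 10 and 11, and Blk averaged 0.260, 0.0825 and 0.118 CPM in NC, MPS 10 and 11, and TZG. Pax5 and Fcrla had 0 counts in all NC libraries, where 3 counts over the group would be 0.0565 CPM. At these depths no difference between the groups was detected for Fcer2, Blk, Pax5 and Fcrla in edgeR with no filter. How large a difference could have been detected was not tested.

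The wider lists showed few calls among the 9 libraries. In MPS against NC without MPS 14, 0 of the tested genes passed in edgeR among 15 of the B cell receptor list, 9 B lineage factors, 12 surface genes, 9 germinal centre genes and 6 plasma cell genes, with 3, 0, 5, 0 and 1 at an unadjusted p under 0.05; DESeq2 called 2, 0, 1, 0 and 0, all lower in MPS. Over all features of this comparison 20.6% had an unadjusted p under 0.05, 2.64% passed in edgeR and 7.94% of those with an adjusted p passed in DESeq2. The list medians of the log2 fold change were -0.58, -0.44, -1.20, -0.01 and -0.70. Cd83, a surface protein of activated B cells and dendritic cells, had 3.76, 2.85, 5.51 and 3.12 CPM in NC and 0.364 and 0.715 in MPS 10 and 11. That is a log2 fold change of -2.49 with an edgeR adjusted p of 0.0594, and of 0.00357 in DESeq2. Blnk, the adaptor below the B cell receptor, had 18, 13, 47 and 7 counts in NC and 2 in each of MPS 10 and 11, a log2 fold change of -3.37 with an edgeR adjusted p of 0.0825 and a DESeq2 adjusted p of 0.0228. For Cd83 and Blnk, MPS 10 and 11 lay below every NC library, beside 24.4% of 19128 features with a count in these groups. Both genes are made by macrophages or dendritic cells as well as by B cells.

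In the list of follicular dendritic cells and follicle stroma, 1 of 8 tested genes passed in edgeR and 5 in DESeq2, 2 higher and 3 lower, beside 2.64% and 7.94% over all features. Ltbr, the lymphotoxin receptor that stromal cells of lymphoid tissue need, had 27.7, 22, 32.4 and 23.1 CPM in NC, 49.9 and 38.9 in MPS 10 and 11, and 38.1, 39.1 and 23.1 in TZG 26, 27 and 43. It rose in MPS over NC by 1.03 ± 0.19 (SE) on the log2 scale in edgeR's quasi-likelihood test, with an adjusted p of 0.0241. MPS 10 and 11 lay above every NC library for Ltbr, beside 8.36% of 19128 features with a count in these groups. The call was lost when any 1 of the 6 libraries was left out, with adjusted p from 0.0553 to 0.169. Ltbr stood at 20.6 CPM in MPS 14, below all other 9 libraries, unlike the 8 genes. Vcam1, the adhesion molecule of follicle stroma and vessels, had 11.6, 17.0, 14 and 18.7 CPM in NC against 3.94 and 2.75 in MPS 10 and 11, a log2 fold change of -1.94 with an edgeR adjusted p of 0.0587 and a DESeq2 adjusted p of 0.00183. For TZG against NC and TZG against MPS, 0 genes of these 6 lists passed in edgeR, and the smallest adjusted p were 0.0674 (Ltbr, TZG against NC) and 0.979. At an unadjusted p under 0.05 there were 1, 0, 0, 2, 0 and 1 genes for TZG against NC and 2, 2, 4, 1, 1 and 3 for TZG against MPS, in the order in which the lists were named, beside 18.8% and 4.19% of all features. DESeq2 called Ltbr for TZG against NC and 0 genes for TZG against MPS, beside 6.53% and 0.114% of all features with an adjusted p.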

How the data were processed

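Counts of reads per gene and FPKM, with the p-values, q-values and log2 fold changes of 3 comparisons, were deposited by the authors, per the file headers, in 2 tables with the same bytes, of which 1 was used. HISAT2, fastp, edgeR 3.30.3 and StringTie 1.3.3b are listed per the submitters' processing notes, with no roles, options or genome build; strand handling and the treatment of reads shared by gene copies are not given in the sources used here. The members overlapped no other feature of the table. FPKM equalled counts over length and total in 100% of 100981 values of 50 or more counts (tolerance 0.1%).

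CPM were taken over the whole library total, and intervals of counts and ratios are exact (95%). Tests used edgeR 4.0.16 in R 4.3.3 on the counts (filterByExpr, TMM, robust quasi-likelihood F test, 3 groups in 1 fit, two-sided, Benjamini-Hochberg over all features tested, threshold 0.05), with all libraries and without MPS 14. Alternatives were DESeq2 1.42.0, RLE factors, no filter and leaving out each library. The fits were checked on simulated counts. The simulation gave every gene the same dispersion and set no library apart, so it does not cover the spread that MPS 14 brings.

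The members and the 11 further lists (134 entries, 129 matched by gene name) were chosen with earlier results of these data known. Cd79a, Siglecg, Fkbp11, Trac and Pecam1 were not matched and are not analysed here. Some list genes are counted in the lists but not reported by name here. Named are the members, up to 4 genes per list with the highest FPKM in MPS 14, list genes with the smallest p without MPS 14, and the 10 nearest profiles (pseudocount 0.5 CPM). Genes with 0 counts elsewhere, list exceptions and immunoglobulin genes were chosen after their values were seen; no feature had an immunoglobulin gene type. Figures used matplotlib 3.10.9.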

Additional observations from a re-analysis of the deposited data

How the results depend on the processing

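With all libraries, the count of features past the threshold was 205 (MPS against NC), 3 (TZG against MPS) and 52 (TZG against NC) in DESeq2, against 0 each in edgeR, and leaving out 1 library gave 0 to 362 and 0 to 1 in the first 2 comparisons. Without MPS 14, edgeR called 362, 1 and 11, DESeq2 1084, 14 and 840, and no filter gave 2 for TZG against MPS and 65 for TZG against NC; leaving out a further library gave 2 to 104, 0 to 2 and 0 to 315. Neither Cd22 nor Cd79b passed in any of these fits that gave them an adjusted p. DESeq2 with all libraries gave neither gene one, and without MPS 14 it gave Cd79b none in both comparisons with TZG. The filter dropped Cd79b when NC 4 or NC 7 was left out. Without MPS 14 the filter also dropped Cd79b when TZG 26 or TZG 43 was left out. Log2 fold changes that turned direction with 1 library left out had these ranges. With all libraries, MPS against NC ran from -2.12 (without MPS 14) to 4.70 for Cd22 and from -2.62 (without MPS 14) to 7.65 for Cd79b, and Cd22 ran from -4.60 to 2.30 (without MPS 14) in TZG against MPS and from -0.48 (without TZG 43; -0.15 without NC 5) to 0.62 in TZG against NC. Without MPS 14, Cd22 in TZG against NC ran from -0.48 to 0.63, turning for the same 2 libraries, and Cd79b in TZG against MPS from -1.12 to 2.81 (without MPS 10). The cause was not tested. Where 1 library remained in a group, it was assumed to vary like the others. No paired analysis was possible because no title number is shared between groups. Depth limits the comparison of the 9 libraries, where 7 of the 8 genes had at most 11 counts in any library.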

Other observations

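Immunoglobulin genes, the antibody chains themselves, were looked up by their description after values were seen. Igh-6, the heavy chain of IgM, had 12334 counts in MPS 14 at 902 FPKM, above every one of the 8 genes per length, and 119 counts elsewhere. Those counts were spread otherwise than the counts of the 8 genes: 58 in MPS 10 and 19 in MPS 11, 1, 0, 0 and 18 in NC 4, 5, 6 and 7, and 17, 6 and 0 in TZG 26, 27 and 43. MPS 10 was thus the highest of the 9 libraries for Igh-6 and the lowest for Cd22. Jchain had 4434 counts in MPS 14 and 20 elsewhere, with 6, 7 and 4 in TZG 26, 27 and 43. Ighg1, the constant region of an IgG heavy chain, had 1986 counts in MPS 14 and 0 elsewhere, which is at least 6352-fold higher if the 9 libraries together are set at a floor of 3 counts. RGD1563231, described as similar to a kappa chain, had 390 and 1, and Igll1, the surrogate light chain of B cell precursors, had 0 in all 10 libraries. Reads of immunoglobulin genes can be shared between near-identical copies, so these counts are uncertain.

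Marco, a scavenger receptor of lymph node and splenic marginal macrophages, had 769 counts in MPS 14 and 0 elsewhere, at least 2460-fold higher. Tnfrsf17, the survival receptor of plasma cells, had 62 and 0 (at least 198-fold), and Tnfsf11, a cytokine of lymphoid stroma and T cells, had 44 and 0 (at least 141-fold).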
